A study of Mus musculus with 87 samples.

Results

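The solute carriers (Slc genes) were taken as every probe set whose single gene symbol in the array annotation has the form Slc, a family number, the letter a and a member number. The glial glutamate, dopamine, serotonin, vesicular monoamine and vesicular GABA transporters Slc1a2, Slc1a3, Slc6a3, Slc6a4, Slc18a2 and Slc32a1 were left out by the same rule. This gave 170 probe sets of 138 genes, among the 8251 genes and 12422 probe sets on the array that are not controls. 27 of the genes had more than 1 probe set, and at most 4. 116 of the 170 probe sets, from 103 genes, had a level high enough to be tested, and 54 did not. 3 member genes carry the letters Slc but are not carriers: Slc4a1ap, Slc9a3r1 and Slc9a3r2 are proteins named after the carriers they bind or adjoin.

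The arrays compared 7 tissues of 6 inbred mouse strains in male wild-type mice of 8 weeks. The tissues were pituitary gland, hippocampus, hypothalamus, bed nucleus of the stria terminalis, periaqueductal gray, amygdala and cingulate cortex, and the strains were FVB/NJ, DBA/2J, C3H/HeJ, C57BL/6J, A/J and 129S6/SvEvTac. Each of the 42 groups of strain and tissue held 2 arrays, or 3 in 3 groups, and each array carried RNA pooled from 1 to 5 mice. Amygdala and cingulate cortex RNA was amplified in 2 rounds from 50 ng, and the other tissues in 1 round from 10 µg, so tissues were tested only against tissues labelled the same way, and levels given side by side across the methods are a description.

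Solute carriers are membrane proteins that move small molecules across the plasma membrane and the membranes of vesicles and mitochondria, many of them driven by the sodium gradient that the sodium pump maintains. In brain they clear glutamate, glycine and GABA from the extracellular space, load synaptic vesicles, supply neurons with glucose, amino acids and creatine, and set neuronal chloride. At the choroid plexus and the meninges, carriers of bicarbonate, organic anions and GABA line the border between blood and cerebrospinal fluid. The pituitary gland is an endocrine organ made mainly of hormone-secreting cells.

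Levels are the deposited intensities on a linear scale. 60 members read below 0 in at least 1 array, and 6.33% of all values did. Levels of different probe sets are not comparable, and were ranked only to choose which members of a class are named. For a group, the lowest, median and highest intensity over its arrays are given in that order. Differences are on the log2 scale after adding 16 and understate the change of dim probe sets. They come with their standard error and an adjusted p from 1 limma fit across 8460 probe sets. A member passed the test at an adjusted p under 0.05, and counts of members are set beside the share of all probe sets that passed, given as the background. 79 of 87 arrays share an animal with an array of another tissue and 4 with a replicate of their own group, and the p-values cover the spread between these arrays alone, which may be technical in part.

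The arrays had medians of 42.6 to 66.1 and upper quartiles of 165 to 185, and replicates correlated at 0.946 to 0.991. Marker genes bore out the labels hippocampus (6 of 6 higher), hypothalamus (6 of 6), periaqueductal gray (4 of 4 midbrain markers) and pituitary gland (8 of 8). The arrays labelled bed nucleus held thalamic RNA: 9 of 9 thalamus markers were higher there, with summed intensities of 3941 to 8462, against at most 3714 in any array of the 3 other tissues labelled in 1 round. Their choroid plexus markers were higher too, 5 of 5, and summed to between 134 and 5355. In pituitary gland, the arrays labelled FVB/NJ and those labelled C3H/HeJ carried each other's strain profile. Over 200 probe sets that separate the strains in brain, the correlation with the labelled strain was 0.787 to 0.869 in the 8 other pituitary arrays. It was lower than 0 in these 4: the arrays labelled C3H/HeJ gave -0.313 and -0.320 with C3H/HeJ but 0.875 and 0.869 with FVB/NJ, and those labelled FVB/NJ gave -0.283 and -0.287 with FVB/NJ but 0.857 and 0.892 with C3H/HeJ.

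The pituitary gland set the members apart most often, as it did all probe sets: 92 of 116 tested members passed in either direction, beside 79.9% of all probe sets. Against the mean of hippocampus, hypothalamus, bed nucleus and periaqueductal gray, 41 of 116 tested members were higher in pituitary gland, where the background was 42.4% of all probe sets, and 51 were lower, where it was 37.5%. The members' median log2 difference was -0.06, against 0.04 over all probe sets. The members higher include some, Slc12a7, Slc10a6 and Slc1a5 among them, that passed the level filter only through pituitary gland. The same filter applied to all probe sets. Each of the 4 tissues was also set against the mean of the other 3. In hippocampus 18 members were higher (background 21.7%) and 38 lower (27.3%), and in hypothalamus 24 were higher (18.5%) and 22 lower (16%). In the arrays labelled bed nucleus 14 were higher (7.52%) and 8 lower (7.4%), and in periaqueductal gray 29 were higher (19.9%) and 17 lower (20.7%). Amygdala, set against cingulate cortex, had 26 members higher (17.4%) and 20 lower (17.2%). With the day of scanning as a fixed term of the fit, the counts fell to 24 members in hippocampus (19.9% of all probe sets), 8 in hypothalamus (9.79%), 7 in bed nucleus (6.29%) and 18 in periaqueductal gray (15.9%), and were 80 in pituitary gland (67.2%) and 39 in amygdala (28%). Member medians in these comparisons lay between -0.06 in hippocampus and 0.06 in hypothalamus, and those over all probe sets between -0.03 in periaqueductal gray and 0.04 in hypothalamus. Counts by class, given with the tissues that follow, are descriptions to be read beside these shares of all probe sets, and no class was tested against the other genes.

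Slc22a6, an organic anion transporter, and Slc6a13, a GABA and taurine transporter, were higher in hypothalamus and lower in bed nucleus, periaqueductal gray and amygdala. With scan day as a fixed term Slc22a6 passed only in amygdala of these 4 comparisons and Slc6a13 in all 4, and without the arrays of high choroid plexus marker sum, described with those markers, neither passed in bed nucleus (-0.57, adjusted p = 0.212, and -0.38, adjusted p = 0.101). Because these 2 genes moved in the same direction in 4 comparisons, the 250 bases before their RefSeq starts are shown, from build GRCm38.p6, on the plus strand. For Slc22a6 they lie at chr19:8617746-8617995, and capitals mark CCAAT and its complement ATTGG. For Slc6a13, at the first of 3 listed starts, they lie at chr6:121300038-121300287, and capitals mark GGGCGG, with CCGCCC counted as the other strand.

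Slc22a6: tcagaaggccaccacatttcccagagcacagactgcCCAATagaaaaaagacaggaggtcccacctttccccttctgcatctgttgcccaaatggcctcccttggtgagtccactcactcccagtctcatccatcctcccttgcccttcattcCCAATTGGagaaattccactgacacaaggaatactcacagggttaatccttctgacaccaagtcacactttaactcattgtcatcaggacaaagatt
Slc6a13: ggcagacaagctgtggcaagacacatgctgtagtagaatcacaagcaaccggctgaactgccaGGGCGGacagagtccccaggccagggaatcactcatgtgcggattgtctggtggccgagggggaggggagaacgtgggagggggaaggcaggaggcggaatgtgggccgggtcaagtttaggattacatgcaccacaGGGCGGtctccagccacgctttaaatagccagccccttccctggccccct

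The Slc22a6 stretch held 3 CCAAT matches, 2 of which are the overlapping letters of CCAATTGG read on both strands, and neither TATAAA nor GGGCGG. The Slc6a13 stretch held 2 GGGCGG matches, and no TATAAA or CCAAT. At the second listed Slc6a13 start, not shown, the stretch held 1 CCAAT match and no GGGCGG, and at the third it held no match to any of these motifs. Among 32851 promoter stretches of the same length, 33.8% held CCAAT, 32.7% GGGCGG and 12.4% TATAAA on either strand. The matches describe these letters and were not tested against expression.

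The carriers of neurotransmitters that could be tested were dimmer in pituitary gland than in brain, Slc1a1, Slc6a9 and Slc1a6 by far the most. All 6 tested probe sets of this class, from 5 genes, were lower there, beside 37.5% of all probe sets. Their median log2 difference was -1.79, against 0.04 over all probe sets. Slc1a1, the neuronal glutamate and cysteine transporter, read -0.590, 4.56 and 21.5 in the 12 pituitary arrays, against 101, 193 and 344 in the 49 brain arrays labelled in 1 round. No pituitary array came near the dimmest brain array, and the log2 difference was -3.24 ± 0.06 (adjusted p = 2.87e-43, limma). Slc6a9, the glycine transporter of glia and some forebrain terminals, read 7.56, 29.1 and 54.2, against 155, 392 and 709 in brain (-3.15 ± 0.07, adjusted p = 1.41e-39). Slc1a6, a glutamate transporter best known from Purkinje cells, read -6.16, 3.94 and 13.9, against 40.7, 105 and 161 (-2.47 ± 0.07, adjusted p = 7.52e-37). Neither gene's groups overlapped. The other members of the class fell less: a second Slc1a1 probe set by 1.10, Slc6a13 by 0.40 and the noradrenaline transporter Slc6a2 by 0.28 on the log2 scale. Slc18a3, which loads acetylcholine into vesicles, and the betaine and GABA transporter Slc6a12 were too dim to be tested. Slc18a3 had a median of 20.8 and a highest value of 60.7 in periaqueductal gray, and a median below 0 in the other 6 tissues. In the same pituitary arrays 7 of 7 neuron markers and 7 of 7 astrocyte markers were lower (summed intensities of 1683 to 2068 and 2429 to 3810, against 7450 to 11250.0 and 10757 to 20044 in the brain arrays labelled in 1 round), and their part in these differences was not tested. In whole tissue, fewer cells of a type and less RNA per cell cannot be told apart.

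Within brain, Slc1a1 and Slc6a9 ran in opposite directions. Slc1a1 read 243, 294 and 344 in hippocampus, against 101, 153 and 238 in the other 3 tissues, and the groups did not overlap (0.83 ± 0.06, adjusted p = 4.19e-16). It was lower in hypothalamus, with 101, 122 and 184, against 117, 207 and 344 in the other 3 tissues (-0.61 ± 0.06, adjusted p = 3.84e-11), and in periaqueductal gray (-0.45). Its second probe set moved in the same directions, by 0.51 in hippocampus and -0.36 in hypothalamus. Slc6a9 read 155, 180.3 and 222 in hippocampus, against 324, 417 and 709 (-1.23 ± 0.08, adjusted p = 4.02e-20). In periaqueductal gray it read 516, 613 and 709, against 155, 364 and 512 (0.92 ± 0.08, adjusted p = 7.65e-15). Every hippocampus array lay below every array of the other 3 tissues, and every periaqueductal gray array above them. The order of median levels was periaqueductal gray at 613, bed nucleus at 400.1, hypothalamus at 377, hippocampus at 180.3 and pituitary gland at 29.1, and the ranges of bed nucleus (348 to 512) and hypothalamus (324 to 509) overlapped. In amygdala, Slc6a9 had a median of 113, against 93.2 in cingulate cortex (0.27, adjusted p = 0.0172).

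Slc1a6 was lower in hippocampus, at 40.7, 52.2 and 75.9, against 74.04, 122 and 161 in the other 3 tissues (-0.91 ± 0.07, adjusted p = 6.70e-17). It was higher in periaqueductal gray (0.50), in hypothalamus (0.49) and in amygdala, where it read 78.3, 98.5 and 131, against 42.1, 70.0 and 76.8 in cingulate cortex (0.55 ± 0.08, adjusted p = 2.36e-07). The dimmest amygdala array lay above the brightest cingulate cortex array. Slc6a13 read 104, 186 and 312 in hypothalamus, against 61.6, 87.2 and 176 in the other 3 tissues (0.86 ± 0.08, adjusted p = 3.70e-13), and 109.7, 190.0 and 257 in amygdala, against 233, 316 and 398 in cingulate cortex (-0.76 ± 0.09, adjusted p = 3.36e-09). Slc6a2 did not pass the test in any brain comparison, with medians of 130.4 in hippocampus, 140.3 in hypothalamus, 124 in bed nucleus and 127 in periaqueductal gray.

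**Figure D1:**
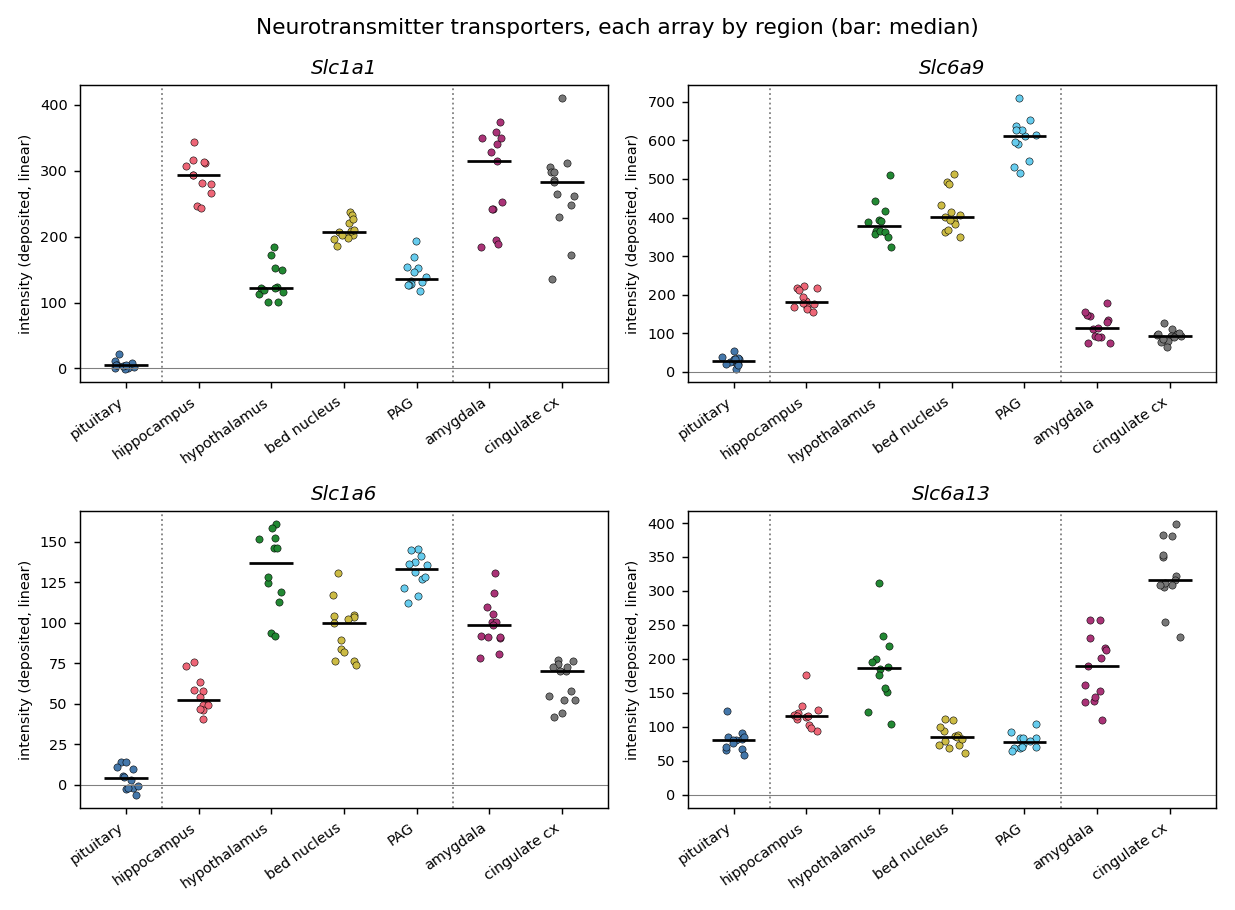
Intensity (linear axis) of Slc1a1, Slc6a9, Slc1a6 and Slc6a13 in each array, by tissue, with the bar at the median. Dotted lines part pituitary gland, the tissues labelled in 1 round and those labelled in 2 rounds. Slc1a1 is highest in hippocampus among the tissues labelled in 1 round (median 294), and Slc6a9 in periaqueductal gray (median 613).

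Outside the neurotransmitter class, pituitary gland differed from brain upward as well as downward. Slc12a7, a potassium and chloride cotransporter, read 119.5, 159 and 226 in pituitary arrays, against -5.60, 20.6 and 60.2 in brain arrays (2.23 ± 0.10). It passed the level filter only through pituitary gland, since no brain group mean passed 55.42, so no p is given for it. Slc12a5, the cotransporter that lowers chloride in neurons, moved the other way, with a median of 60.1 in pituitary gland, against 139 in hippocampus, 147 in hypothalamus, 124 in bed nucleus and 179.7 in periaqueductal gray (-1.28, adjusted p = 4.93e-19). These 2 cotransporters thus lay on opposite sides of the pituitary comparison, but Slc12a5 was chosen after its value was seen. Slc12a4, of the same family, was not named by the rule and is not described. Slc12a2, which brings sodium, potassium and chloride into cells, fell by 0.49 on the log2 scale, the bicarbonate cotransporter Slc4a4 by 2.13 and the anion exchanger Slc4a3 by 0.45. Of 9 tested members of this class, 4 were higher and 4 lower.

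Among organic ion carriers, Slc10a6, a transporter of sulfated steroids, read 49.4, 99.7 and 124 in pituitary gland, against -4.52, 7.06 and 27.8 in brain, where it was at or near background (2.10 ± 0.13). It passed the level filter only through pituitary gland, since no brain array read above 39.84, so no p is given for it. Its relative Slc10a3, of unknown substrate, had a median of 138 in pituitary gland, against 62.5 in brain (0.97 ± 0.08). Slc22a17, a cell-surface receptor for lipocalin, read 521, 779.8 and 1057, against 1853, 2498 and 3414 (-1.69 ± 0.07, adjusted p = 1.03e-28). The Slc10a3 and Slc22a17 differences passed the test, and the groups of Slc22a17 did not overlap. Of the 9 tested members of the class, 3 were higher and 3 lower.

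Of 14 amino acid carriers, 5 were higher in pituitary gland, where the share of all probe sets was 42.4%, and 8 were lower, where it was 37.5%. Slc38a10, a sodium-coupled neutral amino acid transporter, read 642, 829 and 1043 in pituitary gland, against 158, 256 and 369.9 in brain (1.70 ± 0.07, adjusted p = 1.05e-29). Slc7a8, a light chain of heteromeric amino acid exchangers, read 71.2, 107 and 135, against 18.4, 52.6 and 101 (0.87 ± 0.09), and the neutral amino acid exchanger Slc1a5 was also higher (0.98). Slc1a5 passed the level filter only through pituitary gland, since no brain array read above 45. Slc38a10 did not overlap between the groups, whereas Slc7a8 did. Slc6a15, a neuronal carrier of branched-chain amino acids and proline, read 12.1, 23.3 and 33.7, against 122, 248 and 380.0 (-2.64 ± 0.05, adjusted p = 8.07e-42). Slc7a3, a carrier of arginine and lysine, read -22, -7.49 and 3.25, against 5.40, 67.7 and 116 (-2.09 ± 0.08, adjusted p = 1.36e-30). The large neutral amino acid exchanger Slc7a5 fell by 1.23 and its heavy chain partner Slc3a2 by 0.22 on the log2 scale.

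The 2 glucose transporters that supply brain were both dim in pituitary gland. Slc2a1, found in the blood-brain barrier, read 9.34, 20.1 and 28.9 there, against 94.3, 169 and 307 in brain (-2.42 ± 0.08, adjusted p = 6.96e-32). Slc2a3, the neuronal form, read 16.1, 34.1 and 46.5, against 155, 251 and 335 (-2.40 ± 0.10), and its second probe set gave -1.91. Neither gene's arrays overlapped between pituitary gland and brain. Slc50a1, the mammalian member of the sugar efflux family, was higher, at 431, 519 and 566, against 165, 204 and 246 (1.26 ± 0.05, adjusted p = 1.24e-29). In the sugar class 3 of 8 tested members were higher and 4 lower. In the same arrays endothelium markers were split, with 6 of 9 higher and 3 lower (sums of 983 to 1422 in pituitary gland, against 633 to 993 in the brain arrays labelled in 1 round). The 3 lower were Cldn5 (-2.10), Vwf (-1.17) and Flt1 (-0.19), and the 6 higher ran from 0.21 for Pecam1 to 1.95 for Kdr. Their part in the Slc2a1 difference was not tested.

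Zinc and other metal ion carriers rose in 10 of 19 probe sets and fell in 7. Slc39a7, which releases zinc from the endoplasmic reticulum, read 652, 719.8 and 858 in pituitary gland, against 229, 385 and 491 in brain (0.94 ± 0.06, adjusted p = 5.94e-21). Slc30a5, which loads zinc into the secretory pathway, read 152, 187 and 283, against 26.9, 79.2 and 133 (1.21 ± 0.09), and its second probe set gave 1.05. Slc30a4, another vesicular zinc transporter, fell by 0.23 and the magnesium carrier Slc41a1 by 0.98 on the log2 scale. Slc11a2, the iron importer, had 2 probe sets that passed the test in opposite directions, at 0.46 and -0.71, so no direction is given for the gene. Slc48a1, which carries heme, rose by 0.81.

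Mitochondrial carriers were evenly split, with 7 of 22 probe sets higher and 7 lower. Slc25a20, which brings acylcarnitines into mitochondria, read 291, 341 and 435 in pituitary gland, against 116, 152 and 209 in brain (1.07 ± 0.05, adjusted p = 6.90e-28). Slc25a4, the adenine nucleotide exchanger of muscle and brain, read 1288, 1405 and 1784 in pituitary gland, against medians of 3072 in hippocampus, 2846 in hypothalamus, 2813 in bed nucleus and 3159 in periaqueductal gray (-1.02, adjusted p = 1.87e-30). Slc25a20 did not overlap between pituitary gland and brain, and for Slc25a4 the brightest pituitary array lay under each of the 4 brain medians. The oxoglutarate carrier Slc25a11 fell by 0.29 on the log2 scale.

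Carriers of the other classes differed as well. Slc20a1, a phosphate importer, read 14.8, 34.98 and 67.1 in pituitary gland, against 193, 246 and 333 in brain (-2.45 ± 0.07, adjusted p = 1.65e-35). Slc34a2, another phosphate cotransporter, read 13.3, 40.4 and 81.9, against -7.43, 15.6 and 52.4 (0.99 ± 0.16, adjusted p = 3.91e-07), and with scan day as a fixed term it did not pass the test (0.55, adjusted p = 0.119). Slc66a2, a member of the PQ-loop family, read 359, 440.0 and 582, against 125, 165 and 212 (1.36 ± 0.05, adjusted p = 2.04e-32). Slc20a1 and Slc66a2 did not overlap between the groups, while Slc34a2 did and was dim in both. The creatine transporter Slc6a8 fell by 1.63, the sodium and calcium exchanger Slc8a1 by 1.19, the biotin and pantothenate transporter Slc5a6 by 1.03 and the ascorbate transporter Slc23a2 by 0.52. Slc35a1, which carries CMP-sialic acid into the Golgi, rose by 0.81, and the 2 taurine transporter (Slc6a6) probe sets by 0.26 and 0.20. The fatty acid transport proteins split, with Slc27a1 at 0.37 and Slc27a4 at -0.24. The scaffold proteins Slc9a3r1 and Slc9a3r2, which are not carriers, fell by 0.92 and 0.21. Slc29a1, an equilibrative nucleoside transporter, had 1 probe set higher (1.01) and 1 lower (-0.77), so no direction is given for the gene in pituitary gland. Of the sodium pump subunits, 6 of 6 on the array were lower in pituitary gland, with summed intensities of 1005 to 1511, against 2454 to 3917 in the brain arrays labelled in 1 round.

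**Figure D2:**
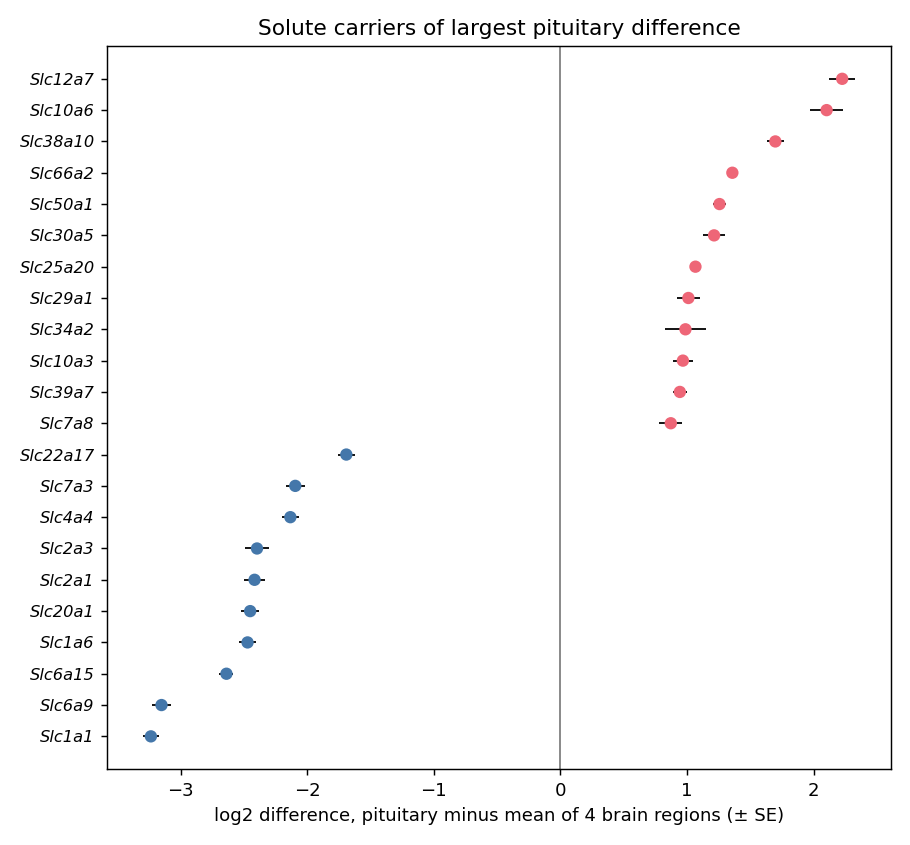
Log2 difference, pituitary gland minus the mean of 4 brain tissues, with its standard error, for the 22 members named by rank in that comparison. The 12 on the positive side run up to 2.23 for Slc12a7, and the 10 on the negative side down to -3.24 for Slc1a1. Slc12a7 and Slc10a6 passed the level filter only through pituitary gland.

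In hippocampus, carriers of calcium and zinc were among the members that were higher, beside the glutamate transporter Slc1a1. Slc8a1, which expels calcium in exchange for sodium, read 292, 334 and 474 there, against 123, 167 and 250.3 in the other 3 tissues (0.98 ± 0.07, adjusted p = 3.77e-18). Slc30a3, which loads zinc into synaptic vesicles and is known from hippocampal mossy fibres, read 683, 829.5 and 967, against 268, 464 and 871 (0.83 ± 0.08, adjusted p = 5.86e-14). Slc8a1 did not overlap between the groups, while the upper Slc30a3 values of the other tissues reached into the hippocampus range. Slc7a8 read 69.7, 81.5 and 101, against 18.4, 36.2 and 91.4 (0.82 ± 0.09), the choline transporter Slc44a1 was higher by 0.58 and the magnesium carrier Slc41a1 by 0.38. With scan day as a fixed term Slc7a8 (0.65, adjusted p = 0.0949), Slc44a1 (0.44, 0.122) and Slc41a1 (0.11, 0.716) did not pass the test. Both other Slc8a1 probe sets were too dim to be tested. In the same arrays 6 of 7 microglia markers were higher (sums of 1388 to 1993 in hippocampus, against 989 to 1647 in the other 3 tissues), 4 of 4 cortex markers were higher (1244 to 1790, against 164 to 454), and 4 of 7 myelin markers were lower. Their part in the hippocampus differences was not tested.

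More members were low than high in hippocampus. Slc7a3 read 5.40, 13.7 and 26.3 there, against 35.2, 76.8 and 116 in the other 3 tissues (-1.66 ± 0.08, adjusted p = 1.50e-24). Slc29a1 read 37.3, 60.5 and 85.8, against 86.5, 182 and 390.5 (-1.35 ± 0.09, adjusted p = 2.90e-18), though its second probe set gave 0.07 and did not pass (adjusted p = 0.593). Neither gene's groups overlapped at these probe sets. By class, 10 of 22 mitochondrial carrier probe sets were lower in hippocampus and 1 higher, 6 of 9 chloride, bicarbonate, sodium and proton carriers were lower and 0 higher, and 6 of 11 vitamin, nucleoside and nucleotide sugar carriers were lower and 0 higher, beside 27.3% of all probe sets lower and 21.7% higher. The citrate carrier Slc25a1 had 2 probe sets, both lower (-0.77 and -0.53), and Slc25a39, needed for mitochondrial glutathione, fell by 0.70 and the ATP and phosphate carrier Slc25a25 by 0.50 on the log2 scale.

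In periaqueductal gray 9 of 22 mitochondrial carrier probe sets were higher and 0 lower, beside 19.9% and 20.7% of all probe sets. Slc25a25 read 465, 592 and 706 there, against 299, 407 and 537 in the other 3 tissues (0.53 ± 0.05, adjusted p = 2.23e-11), and Slc25a1 was higher at both probe sets (0.56 and 0.40). With scan day as a fixed term the larger Slc25a1 difference, 0.41, did not pass (adjusted p = 0.084). Slc2a1 read 161, 243 and 307, against 94.3, 159.8 and 231 (0.54 ± 0.09, adjusted p = 1.01e-06). Slc7a3 read 73.2, 92.7 and 116, against 5.40, 61.2 and 108 (0.83 ± 0.08, adjusted p = 1.54e-12). Both ranges overlapped those of the other 3 tissues. Slc7a8 was lower, at 18.4, 26.1 and 36.96, against 23.2, 69.7 and 101 (-0.85 ± 0.09, adjusted p = 7.57e-11). Its medians were thus 26.1 in periaqueductal gray, 33.7 in hypothalamus, 70.4 in bed nucleus and 81.5 in hippocampus. In the same arrays 6 of 7 myelin markers were higher (sums of 7052 to 9884 in periaqueductal gray, against 4002 to 9547 in the other 3 tissues), and 7 of 7 microglia markers were lower. Neuron markers were higher in 6 of 7 and lower in 1 (sums of 9640 to 11250.0, against 7450 to 11226), and astrocyte markers were higher in 4 of 7 and lower in 1 (13440 to 20044, against 10757 to 15723). Their part in these differences, that of Slc6a9 included, was not tested.

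In hypothalamus Slc12a7 was higher, at 17.3, 43.1 and 60.2, against -5.60, 18.7 and 36.5 in the other 3 tissues (0.77 ± 0.10, adjusted p = 2.70e-08). It was dim throughout brain, and with scan day as a fixed term it did not pass the test (0.53, adjusted p = 0.123), nor did it in periaqueductal gray (-0.50, -0.05 with scan day). In the same arrays 4 of 8 pituitary gland markers were higher and 0 lower (sums of 592 to 8826 in hypothalamus, against 292 to 6900 in the other 3 tissues and 53657 to 67092 in pituitary gland), and their part in the Slc12a7 difference was not tested. Slc7a3 read 58.3, 82.4 and 108 in hypothalamus, against 5.40, 64.8 and 116 (0.61 ± 0.08). That call was also lost with scan day (0.44, adjusted p = 0.0595), as was that of Slc25a1 (0.55 against 0.41 with scan day, adjusted p = 0.0735). Slc6a8 was lower, at 102, 133 and 159, against 132, 233 and 325 (-0.71 ± 0.09, adjusted p = 3.66e-09), and so was Slc8a1, at 124, 151 and 183, against 123, 222 and 474 (-0.50 ± 0.07, adjusted p = 2.73e-08). Both ranges overlapped, since the other 3 tissues differ among themselves. Of the mitochondrial carriers, 7 of 22 were higher and 3 lower in hypothalamus, beside 18.5% and 16% of all probe sets. In the same arrays 5 of 7 neuron markers were lower and 1 higher (sums of 7450 to 8726 in hypothalamus, against 8688 to 11250.0 in the other 3 tissues), 6 of 7 myelin markers were lower, and their part in these differences was not tested.

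In the arrays labelled bed nucleus Slc29a1 read 198, 252 and 390.5, against 37.3, 138 and 211 in the other 3 tissues (1.04 ± 0.09, adjusted p = 1.43e-13), while its second probe set gave 0.04 (adjusted p = 0.871). Slc12a2 read 527, 641 and 794, against 332, 488 and 709 (0.41 ± 0.07, adjusted p = 2.16e-06). Slc6a15 was lower, at 122, 201 and 262, against 149, 274 and 380.0 (-0.48 ± 0.06, adjusted p = 1.10e-09), and so was Slc30a3, at 274, 427 and 606, against 268, 539 and 967 (-0.43 ± 0.07). These 4 members kept their calls without the arrays of high choroid plexus marker sum (0.74, 0.37, -0.36 and -0.42), a setting chosen after seeing the data. All 4 ranges overlapped those of the other 3 tissues. Slc7a8 (0.51), the ascorbate transporter Slc23a2 (0.31) and Slc9a3r1 (0.34) were also higher, but did not pass in that setting (0.26, 0.24 and 0.20) or with scan day as a fixed term (0.44, 0.28 and 0.25). The thalamus markers in these arrays, given above, moved with the same comparison. So did myelin markers, 6 of 7 higher (sums of 6862 to 9547 in bed nucleus, against 4002 to 9884 in the other 3 tissues), and hypothalamus markers, 5 of 6 higher (4120 to 8493, against 789 to 14949), and the part of these lists in it was not tested.

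**Figure D3:**
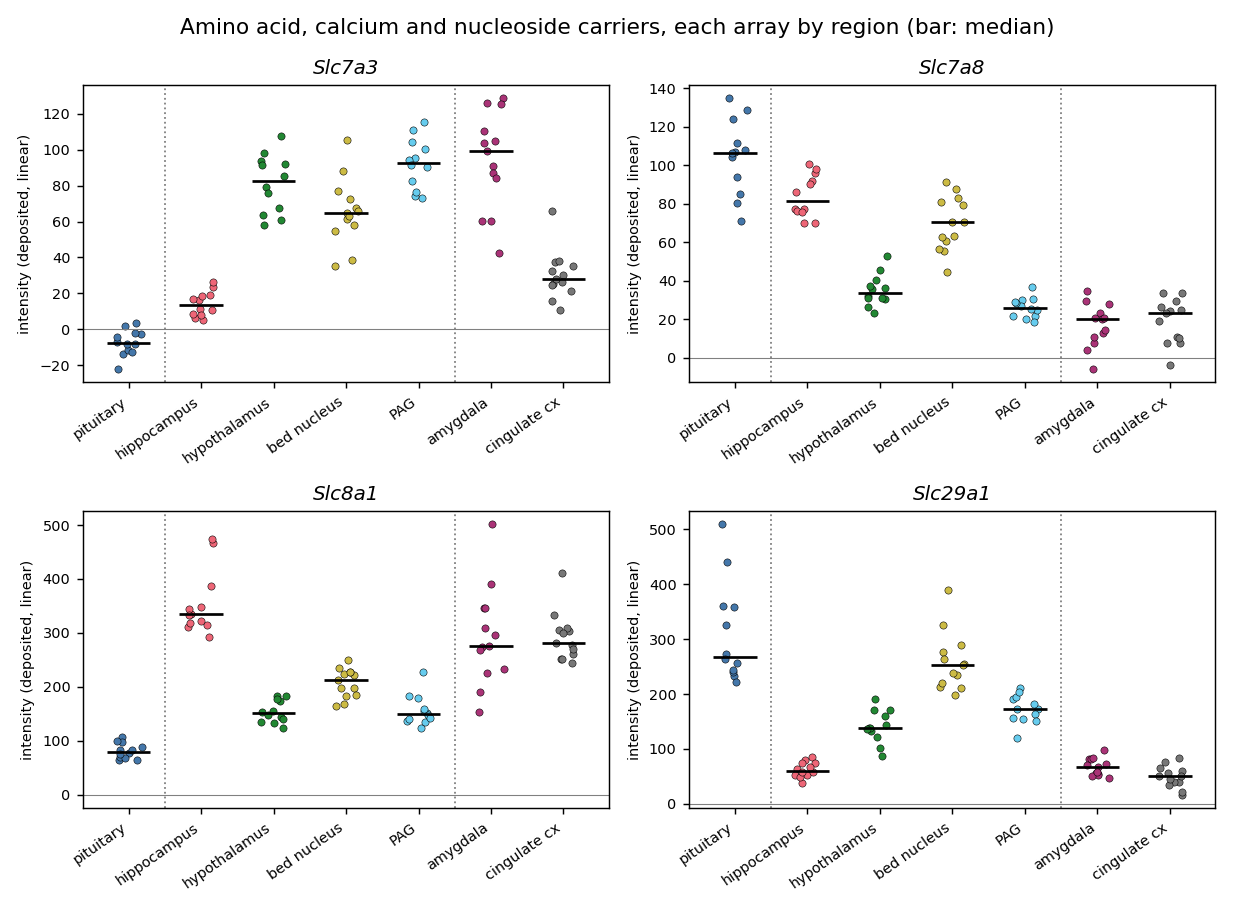
Intensity (linear axis) of Slc7a3, Slc7a8, Slc8a1 and Slc29a1 in each array, by tissue, laid out as in the plot of neurotransmitter carriers, with the bar at the median. Hippocampus stands below the 3 other tissues labelled in 1 round for Slc7a3 (highest array 26.3) and Slc29a1 (85.8), and above them for Slc8a1 (lowest array 292).

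Amygdala was set against cingulate cortex, the other tissue amplified in 2 rounds. Slc7a3 read 42.2, 99.2 and 129 in amygdala, against 10.8, 27.8 and 65.7 in cingulate cortex (1.21 ± 0.09, adjusted p = 2.08e-15). Slc27a2, a fatty acid transport protein and acyl-CoA synthetase, read 22.8, 63.3 and 86.9, against 6.78, 24.4 and 38 (0.88 ± 0.13, adjusted p = 3.05e-07). Both genes' ranges overlapped at the low end of amygdala. The zinc importer Slc39a6 read 312, 513 and 663, against 236, 311 and 431 (0.60 ± 0.08), and Slc38a10 read 112, 145 and 197, against 70.8, 96.7 and 148 (0.52 ± 0.08). The neutral amino acid transporter Slc38a4 was higher by 0.47 (adjusted p = 0.00909), a call lost with scan day as a fixed term (0.09, adjusted p = 0.714).

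Downward, Slc30a4 read 144, 199 and 322 in amygdala, against 197, 466 and 559 in cingulate cortex (-0.85 ± 0.06, adjusted p = 4.80e-16). Slc6a8 read 117, 161 and 287, against 168, 269.8 and 387 (-0.69 ± 0.10, adjusted p = 5.34e-07), the same direction as in hypothalamus. Slc37a4, which brings glucose phosphate into the endoplasmic reticulum, read 40.4, 67.2 and 101, against 74.9, 94.5 and 130.3 (-0.48 ± 0.08), and did not pass without the arrays of high choroid plexus marker sum (-0.25, adjusted p = 0.0576). The organic cation transporter Slc22a2 was lower by 0.47, a call lost with scan day as a fixed term (-0.32, adjusted p = 0.188). By class, 0 of 8 sugar carriers were higher and 4 lower, while 6 of 22 mitochondrial carriers were higher and 2 lower, beside 17.4% and 17.2% of all probe sets. Slc25a5, a second adenine nucleotide exchanger, had a probe set lower (-0.36) and another higher (0.42), so no direction is given for it. In the same comparison 4 of 4 cortex markers and 6 of 9 endothelium markers were lower and 3 of 3 striatum markers were higher in amygdala, and their part in these differences was not tested.

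Several members moved with markers of the choroid plexus, the tissue that secretes cerebrospinal fluid into the ventricles. 5 of 10 listed markers were on the array, and transthyretin (Ttr), the main one, had a median intensity of 1643 in bed nucleus, against 86.5 in hippocampus, 34.6 in periaqueductal gray and 30.3 in hypothalamus, and of 555 in amygdala, against 133 in cingulate cortex. The marker sum passed 901, the highest value of any hippocampus, hypothalamus or periaqueductal gray array, in 9 of 13 bed nucleus arrays, 6 of 13 amygdala arrays and 1 cingulate cortex array. The limit was set on arrays labelled in 1 round and used for those labelled in 2 rounds as well. Slc4a5, a sodium and bicarbonate cotransporter of the choroid plexus, read 18.8, 64.8 and 129.8 in the 9 bed nucleus arrays over that limit, against 1.41, 3.93 and 10.3 in the other 4. In amygdala it read 15.4, 62.0 and 79.7 in the 6 arrays over the limit, against 1.60, 9.38 and 17.8 in the other 7. The gene was near background in bed nucleus arrays with a low marker sum. Its log2 difference was 1.32 in bed nucleus (adjusted p = 1.19e-07, not of 1 sign in all strains), 0.65 in amygdala and -0.63 in hypothalamus, and the last became -0.21 (adjusted p = 0.436) when bed nucleus was left out of the comparison, and 0.22 (adjusted p = 0.762) with scan day as a fixed term.

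The anion exchanger Slc4a2 read 225, 307 and 393 in the bed nucleus arrays over the limit, against 181, 196 and 224 in the others, and the copper importer Slc31a1 had medians of 157 and 101 in the same 2 sets of arrays. In amygdala the medians over and under the limit were 120 and 74.7 for Slc4a2, and 454 and 355 for Slc31a1. The brightest amygdala array for Slc31a1 (687) had the lowest marker sum (194). Slc12a2 medians over and under the limit were 641 and 620 in bed nucleus, and 915 and 1036 in amygdala. Slc4a2 passed the test in bed nucleus over all arrays (0.43 ± 0.08, adjusted p = 2.17e-05), but was at -0.04 without the arrays over the limit, and at 0.23 with scan day as a fixed term, which did not pass (adjusted p = 0.288). That setting left 4 bed nucleus arrays of 3 strains, in which 5 members passed the test, against 10 when all arrays of those strains were used. The corresponding shares of all probe sets were 5.58% and 8.12%. In amygdala the same setting left 7 arrays of 5 strains, in which 30 members passed, against 45 when all arrays of those strains were used, beside 23.4% and 30.9% of all probe sets.

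Markers of the meninges, the membranes around the brain, moved with a second set of members. 7 of 10 were higher in hypothalamus, 8 of 10 lower in periaqueductal gray, 4 lower and 1 higher in bed nucleus and 5 of 10 lower in amygdala, and 1 of them, prostaglandin D synthase (Ptgds), had a median of 4803 in hypothalamus, against 1585 to 1977 in the other 3 tissues labelled in 1 round. Ptgds weighs most in the meninges sum, which had a median of 6870 in hypothalamus, so a split of arrays on this sum is largely one on Ptgds. Aldh1a2 stayed near or below 0, with medians between -10.6 and 17.3 in the 6 brain tissues. Slc22a6 read 4.84, 37.1 and 104 in hypothalamus, against -3.46, 13.6 and 45.8 in the other 3 tissues (0.88 ± 0.13, adjusted p = 3.50e-07), and 1.42, 14.01 and 46.2 in amygdala, against 17.6, 54.9 and 79.6 in cingulate cortex (-0.95 ± 0.16). It was also lower in periaqueductal gray (-0.68) and bed nucleus (-0.54), and neither call passed with scan day as a fixed term (-0.70, adjusted p = 0.127, and -0.61, adjusted p = 0.206). Slc6a20b, of the same family as Slc6a13, read 83.8, 144 and 274 in hypothalamus, against 59.3, 95.9 and 148 (0.49 ± 0.08, adjusted p = 3.98e-06). The hypothalamus array with the highest meninges sum (FVB/NJ replicate 1, 10283) had 104 for Slc22a6, 312 for Slc6a13 and 274 for Slc6a20b, and the one with the lowest (129S6/SvEvTac replicate 2, 1757) had 4.84, 104 and 83.8. Those were the highest and lowest hypothalamus values of all 3 genes. Without the 7 hypothalamus arrays whose sum passed 6142, Slc6a13 still passed (0.66), but Slc22a6 (0.35, adjusted p = 0.254) and Slc6a20b (0.32, adjusted p = 0.0858) did not. Slc22a6 and Slc6a20b also did not pass with scan day as a fixed term (0.82 and 0.36). In that reduced set 22 members passed, or 37 with all arrays of the same strains, beside 18.5% and 27% of all probe sets.

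**Figure D4:**
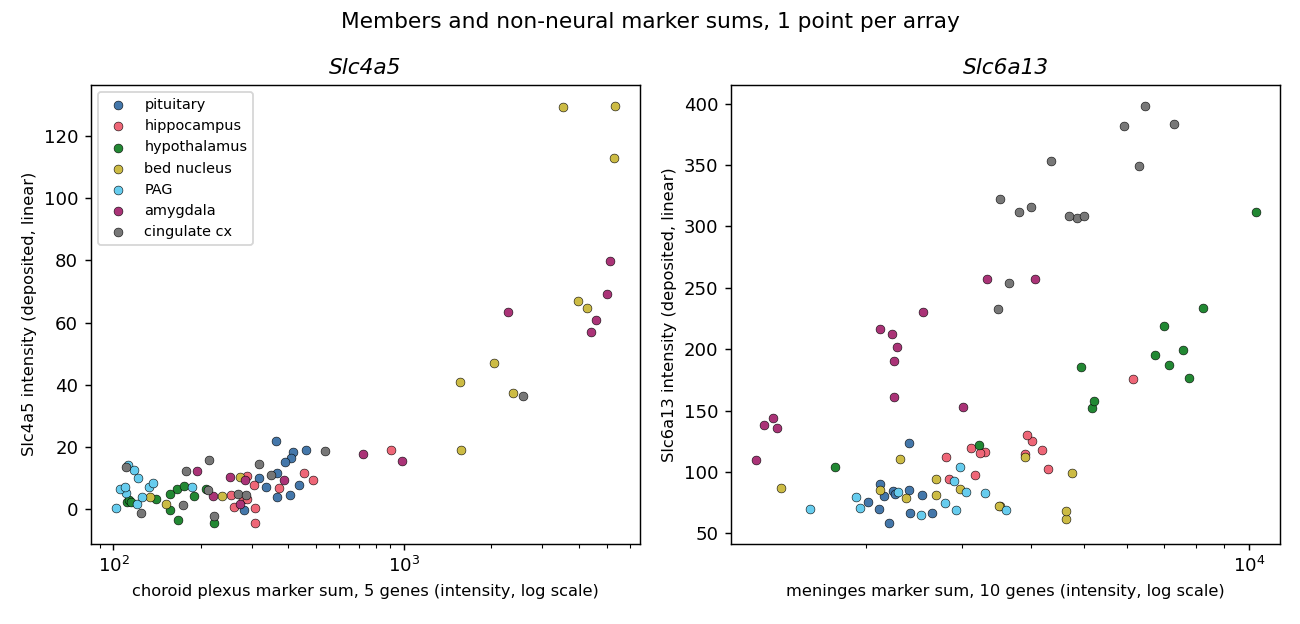
Slc4a5 intensity against the summed intensity of 5 choroid plexus markers, and Slc6a13 intensity against that of 10 meninges markers, 1 point an array, with the marker sum on a log axis. Slc4a5 reads highest in bed nucleus (up to 129.8) and amygdala (up to 79.7) arrays whose choroid plexus sum is above 901, and Slc6a13 is highest among the arrays labelled in 1 round in hypothalamus arrays of high meninges sum.

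Strain differences were tested over the 6 brain tissues, each strain against the mean of the other 5. Probe sequences were not at hand, so sequence variants between strains under the probes could not be checked. Such a variant can shift a reading without a change in RNA, so these are differences in probe set signal. 36 of 116 members differed among strains by the overall F test, against 39.3% of all probe sets. The count was 17 with scan day as a random block (24% of all probe sets), 23 without bed nucleus and amygdala (25.3%) and 10 with the group means as samples (15.3%). Among the 36 were 12 of 22 mitochondrial carriers, 6 of 19 metal ion carriers, 4 of 14 amino acid carriers and 3 of 6 neurotransmitter carriers. In 129S6/SvEvTac 10 members passed upward (background 7.75%) and 12 downward (7.64%), and in A/J 4 upward (7.29%) and 7 downward (7.03%). In C57BL/6J the counts were 4 higher (9.61%) and 12 lower (9.82%), and in C3H/HeJ 6 higher (3.85%) and 2 lower (4.86%). In DBA/2J 4 were higher (5.9%) and 7 lower (5.46%), and in FVB/NJ 5 were higher (5.99%) and 1 lower (5.59%). With scan day as a fixed term 3 members passed in C57BL/6J (5.96% of all probe sets), 4 in A/J (8.14%), 6 in DBA/2J (4.39%) and 8 in FVB/NJ (8.75%). With it as a random block 11 passed in 129S6/SvEvTac (9.24%). In FVB/NJ 11 passed with quantile normalization (12.1%), and 10 to 13 when any of 6 arrays was left out, 13 of them without FVB/NJ bed nucleus replicate 2 (12%). In C57BL/6J 5 of 7 myelin markers and 4 of 7 microglia markers were higher and none lower. Their sums in hippocampus were 7440 to 8150 and 1973 to 1993 in C57BL/6J, against 4157 to 6601 and 1388 to 1847 in the other 5 strains, and their part in the C57BL/6J differences was not tested.

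Slc6a15 had the largest strain F of all members (51.9). It read 138, 227 and 313 in A/J brain arrays, against 122, 287 and 727 in the other 5 strains (-0.55 ± 0.05, adjusted p = 4.71e-12), and was also lower in DBA/2J (-0.47). It was higher in C3H/HeJ, at 201, 311 and 727, against 122, 269 and 618 (0.40 ± 0.05), in 129S6/SvEvTac (0.33) and in FVB/NJ (0.27). The tissues themselves differ, so the pooled ranges overlap, but within hippocampus the group levels were 238 in A/J and 196 in DBA/2J, against 303 to 367 in the other 4 strains. All 5 of these strain contrasts had the same sign in each of the 6 brain tissues.

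Slc15a2, which carries dipeptides and tripeptides into astrocytes and choroid plexus, had an F of 50.5. FVB/NJ brain arrays read 94.9, 114 and 134, against 8.63, 57.5 and 134 in the other 5 strains (0.77 ± 0.08, adjusted p = 2.49e-11), and 129S6/SvEvTac read 71.7, 93.9 and 134, against 8.63, 57.5 and 134 (0.47 ± 0.08). A/J (-0.53), DBA/2J (-0.55) and C3H/HeJ (-0.52) were lower. No A/J, C3H/HeJ or DBA/2J brain array reached the dimmest FVB/NJ array. The 129S6/SvEvTac and DBA/2J contrasts did not pass with scan day as a fixed term (0.30 and -0.26). In pituitary gland the group levels were 77.6 in the arrays labelled C3H/HeJ and 25.9 in those labelled FVB/NJ, in the reverse order to brain.

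Metal and heme carriers gave 2 of the 4 largest strain F values among members. Slc11a2 (F 35.3) read 113, 130.3 and 141 in 129S6/SvEvTac brain arrays, against 126, 212 and 294 in the other 5 strains (-0.62 ± 0.05, adjusted p = 1.25e-15). In each brain tissue the 129S6/SvEvTac group lay below the other 5 strains, and the second probe set moved the same way by less (-0.21, adjusted p = 0.00393). In C57BL/6J the gene was higher by 0.18 at the first probe set and at -0.07 at the second, and the call was lost without C57BL/6J cingulate cortex replicate 1 (adjusted p = 0.0537). Slc48a1 read 91.5, 163 and 238 in C3H/HeJ, against 43.2, 95.2 and 177 (0.65 ± 0.07, adjusted p = 6.75e-10). It was also higher in FVB/NJ (0.35), and lower in DBA/2J, at 49.3, 76.99 and 106 (-0.46), and in 129S6/SvEvTac (-0.45, and -0.19 with scan day as a fixed term, which did not pass). The zinc transporters moved by less: Slc30a9 was higher by 0.25 in 129S6/SvEvTac and Slc30a4 by 0.23 in DBA/2J, while Slc30a3 was lower by 0.24 in C57BL/6J. The Slc30a9 call did not pass without bed nucleus and amygdala (0.20, adjusted p = 0.112). The Slc30a4 call did not pass over the 4 tissues labelled in 1 round (0.12, adjusted p = 0.295), and the Slc30a3 call was lost without C57BL/6J amygdala replicate 2 (adjusted p = 0.0674).

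Among mitochondrial carriers, Slc25a51, the NAD importer, had an F of 24.98. It read 103, 146 and 251 in A/J brain arrays, against 64.7, 105 and 276 (0.37 ± 0.05, adjusted p = 2.74e-07), was higher in C3H/HeJ (0.32) and lower in C57BL/6J (-0.34), a call that did not pass with scan day as a fixed term (-0.21, adjusted p = 0.180). Its second probe set gave -0.02, 0.06 and -0.13 in the same contrasts and passed in none of them, so the gene's strain pattern rests on 1 probe set. Slc25a17, a carrier of the peroxisome membrane, read 118, 170.2 and 197 in FVB/NJ, against 106, 227 and 321 (-0.40 ± 0.06, adjusted p = 3.82e-07). Slc25a14, of the uncoupling protein family, was higher by 0.18 in A/J and the mitochondrial iron importer Slc25a28 by 0.15 in DBA/2J (adjusted p = 0.04596). The second call was lost when any 1 of 38 arrays was left out. The Slc25a14 call did not pass with scan day as a random block (adjusted p = 0.0548).

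The scaffold Slc9a3r1 read 74.95, 253 and 331 in 129S6/SvEvTac brain arrays, against 162, 382 and 659 in the other 5 strains (-0.77 ± 0.08, adjusted p = 2.76e-11), and was higher by 0.28 in A/J, a call that did not pass with scan day as a random block (adjusted p = 0.0658). Slc1a1 was lower in C57BL/6J, at 112, 178 and 294, against 101, 233 and 409 (-0.30 ± 0.06), but not over the 4 tissues labelled in 1 round (-0.07, adjusted p = 0.56). Slc2a3 was higher by 0.29 in C57BL/6J at 1 probe set, with -0.08 at the other, and turned to -0.03 with scan day as a fixed term. The amino acid transporter Slc38a2 was lower by 0.26 in A/J and did not pass without A/J hippocampus replicate 2 (adjusted p = 0.0595). Slc5a6 was higher by 0.22 in DBA/2J and did not pass with scan day as a random block (adjusted p = 0.177). 3 further members were named for their F alone: Slc4a4 (17.7), the orphan mitochondrial carrier Slc25a53 (9.499) and Slc7a3 (7.16).

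**Figure D5:**
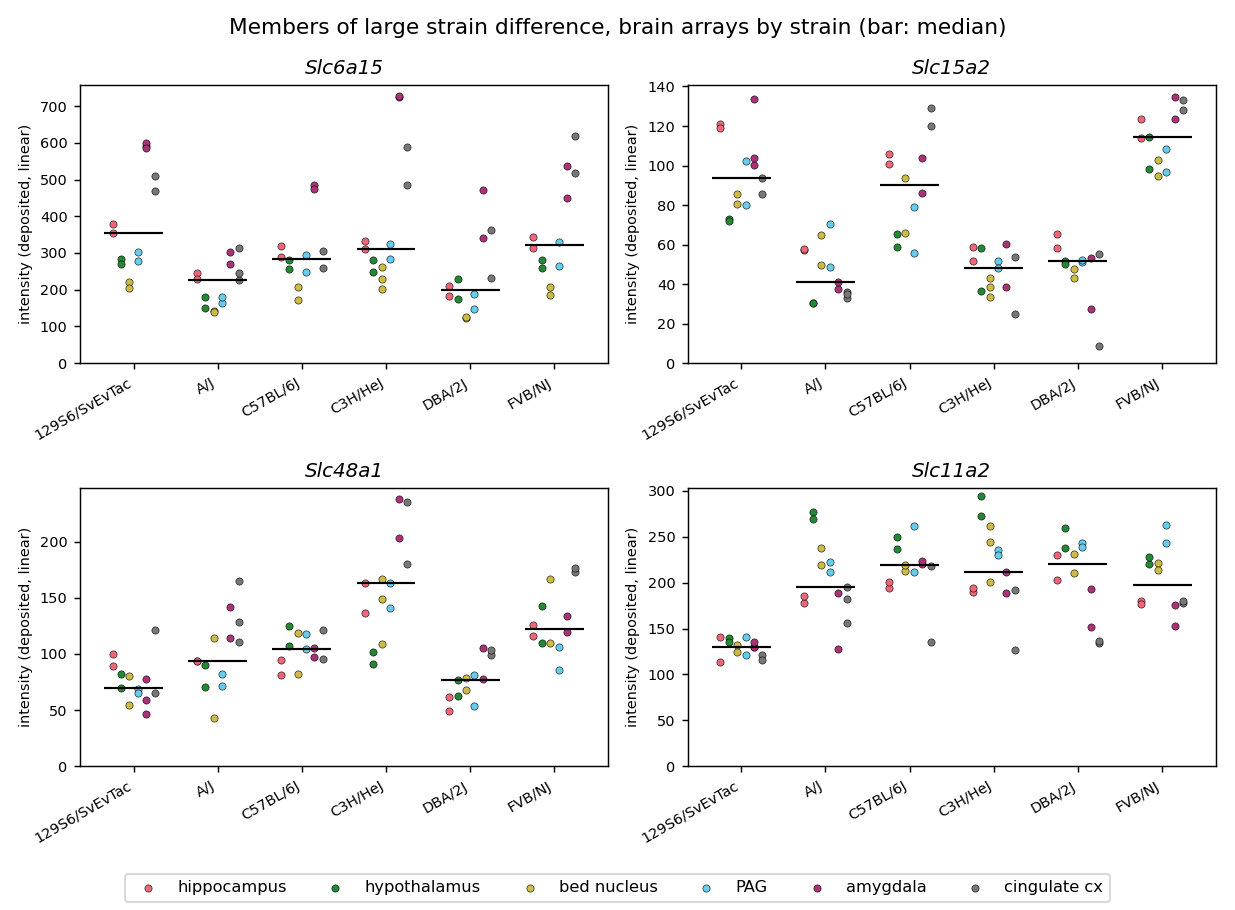
Intensity (linear axis) of Slc6a15, Slc15a2, Slc48a1 and Slc11a2 in the brain arrays of each strain, coloured by tissue, with the bar at the median. FVB/NJ is highest for Slc15a2 (median 114), C3H/HeJ for Slc48a1 (163), and 129S6/SvEvTac is lowest for Slc11a2 (130.3).

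In pituitary gland 14 of 116 members differed among the 6 labelled strains, against 14.4% of all probe sets, or 6 (9.23%) with scan day as a random block. Slc1a5 had the largest F (11.1, adjusted p = 1.26e-05), with group levels of 43.5 in 129S6/SvEvTac, 69.99 in A/J, 109 in C57BL/6J, 66.6 in the arrays labelled C3H/HeJ, 101 in DBA/2J and 17.4 in those labelled FVB/NJ. The arrays labelled FVB/NJ, which carry the C3H/HeJ profile, were thus the lowest. Slc25a25 (F 6.795) ran from 311 in A/J to 553 in 129S6/SvEvTac and 550.3 in C57BL/6J. Slc9a3r1 (F 6.11) was lowest in 129S6/SvEvTac, at 120.0, and highest in A/J, at 332, the same ends as in brain. Slc7a5 (F 5.41) ran from 96.2 in the arrays labelled C3H/HeJ to 172 in DBA/2J, and Slc35a1 (F 5.21) from 133 in C57BL/6J to 196 in A/J. The Slc7a5 call was lost with scan day as a random block (F 2.99, adjusted p = 0.135). Slc15a2 (F 7.89), Slc1a1 (F 5.81) and Slc25a51 (F 4.501) also passed. Slc15a2 (F 4.08, adjusted p = 0.0863) and Slc25a51 (F 1.67, adjusted p = 0.45) did not pass without the 4 arrays labelled C3H/HeJ or FVB/NJ. Slc1a1, which was at background in pituitary gland, did not pass with 64 added before the log (F 1.13, adjusted p = 0.563).

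Strain differences that depended on the brain tissue were seen in 18 of 116 members, against 21.3% of all probe sets, or in 3 (5.97%) with scan day as a random block. Slc30a4 led them (F 5.45, adjusted p = 2.89e-05). In cingulate cortex its C57BL/6J arrays read 215 and 197, against 424 to 559 over the 11 arrays of the other 5 strains. In hippocampus the strains lay between 183 and 213, with C57BL/6J at 204. In amygdala C3H/HeJ (319) and DBA/2J (311) stood above the other 4 strains (166 to 229.8). Slc25a53 followed (F 4.59, adjusted p = 0.000194), with FVB/NJ lowest in hippocampus (46.8) and highest in periaqueductal gray (91.7). These 2 were the members among the 8 of largest F that still passed with scan day as a random block.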

How the data were processed

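RNA of 87 samples was hybridised to Affymetrix MG_U74Av2 arrays, per the file headers. The authors deposited intensity values for 12488 probe sets in 1 file. No source used here gives their algorithm or scaling, and values below 0 point to subtraction of a background or mismatch signal. Genes were named from the platform annotation, and 1 probe set with several symbols was left out. The 66 control probe sets were removed, values below 0 were set to 0, 16 was added and log2 taken, with no further scaling. Probe sets whose highest group mean passed 55.42, the median of all values, were tested (8460). A probe set dim in all tissues but 1 was thus tested because of that tissue, as Slc12a7, Slc10a6 and Slc1a5 were because of pituitary gland. Its difference there is a description. A limma fit of 42 group means (limma 3.58.1, R 4.3.3, statmod 1.5.0) gave every contrast, with Benjamini-Hochberg adjustment over the 8460. Figures used matplotlib 3.10.9 and pandas 2.3.3. The fit was tested on simulated data. Array number per group limits precision. The members, classes and marker lists were chosen with earlier results of these data known. Members were named by rule: all neurotransmitter carriers; among called members of 1 sign in all 6 strains, the 6 highest and 4 lowest in each of 4 brain tissues, 12 and 10 in pituitary gland, and 6 and 6 in amygdala; the 12 largest brain strain F values, and the 3 highest and 3 lowest of each strain with 1 sign in all 6 brain tissues; the 8 largest interaction and 8 largest pituitary F values; in each class, the 2 of highest mean level; and other probe sets of a named gene. Carriers outside the rule (Slc12a5, Slc25a39, Slc31a1, Slc7a5 in the tissue comparison and probe sets that disagree) were chosen after their values were seen. Alternatives were: 64 in place of 16, no filter, quantile normalization, median centring, scan day as a fixed term or random block (17 days), a replicate number block, leaving out each array, and subsets of tissues. Replicate numbers were checked as pairs: deviations of same-numbered samples correlated at a median of 0.0021, and of other-numbered samples at -0.0021. In groups of 2 arrays the deviations are mirror images, so the 2 medians are not independent. No pairing by number was seen over the pairs as a whole, but single pairs may still share animals or a day.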

Additional observations from a re-analysis of the deposited data

Results flagged for a closer look

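The 8 members below are listed because their strain differences differed between brain tissues by the strain by region F test of the limma fit, which 21.3% of all probe sets passed. The zinc transporter Slc30a4 (F 5.45, adjusted p = 2.89e-05) read low in C57BL/6J in cingulate cortex and high in C3H/HeJ and DBA/2J in amygdala, as given above. The orphan carrier Slc25a53 (F 4.59, adjusted p = 0.000194) had group levels of 46.8 in FVB/NJ to 90.95 in 129S6/SvEvTac in hippocampus, and 61.1 in 129S6/SvEvTac to 91.7 in FVB/NJ in periaqueductal gray. The amino acid exchanger heavy chain Slc3a2 (F 3.11, adjusted p = 0.00565) had C57BL/6J lowest in bed nucleus, at 541, and second highest in cingulate cortex, at 879. The carnitine carrier Slc25a20 (F 2.899, adjusted p = 0.00929) was at 149.7 in C57BL/6J in cingulate cortex, above the 91.8 to 123 of the other 5 strains. The bicarbonate cotransporter Slc4a4 (F 2.82, adjusted p = 0.01098) was lowest in C3H/HeJ in hypothalamus, at 126, and highest in that strain in periaqueductal gray, at 269. The zinc importer Slc39a4 (F 2.76, adjusted p = 0.0125) was at 288 in C57BL/6J in cingulate cortex, above the 132 to 202 of the other 5 strains, and lowest in that strain in hypothalamus, at 187. The amino acid transporter Slc38a2 (F 2.597, adjusted p = 0.0179) was highest in C57BL/6J in amygdala, at 373, and in FVB/NJ in cingulate cortex, at 461. The citrate carrier Slc25a1 (F 2.596, adjusted p = 0.0179) was at 312 in C57BL/6J in cingulate cortex, above the 207 to 243 of the other 5 strains, and did not pass without C57BL/6J cingulate cortex replicate 2 (F 1.99, adjusted p = 0.0738) or with arrays centred on one median (F 1.74, adjusted p = 0.122). Slc3a2, Slc25a20, Slc4a4, Slc39a4, Slc38a2 and Slc25a1 did not pass with scan day as a random block, and the part of scan day was not tested further.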

How the results depend on the processing

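Of the 133 named results, each kept its direction and its side of the threshold with quantile normalization and with the replicate number as a block. That block gave counts between 8 members in FVB/NJ and in C3H/HeJ and 92 in pituitary gland, and every count stayed within a factor of 1.5. Deviations of same-numbered samples correlated at a median of 0.0021, and 15.5% of these pairs passed 0.1. Scan day as a fixed term, with 12 estimable terms, ended 33 named calls and turned 2: Slc4a5 in hypothalamus to 0.22 and Slc2a3 in C57BL/6J to -0.033. The cause was not tested. The members called in it, each beside the share of all probe sets, were 24 in hippocampus (19.9%), 8 in hypothalamus (9.79%), 7 in bed nucleus (6.29%), 18 in periaqueductal gray (15.9%), 4 in A/J (8.14%), 3 in C57BL/6J (5.96%), 6 in DBA/2J (4.39%) and 24 by the pituitary strain F (21.1%). With scan day as a random block 17 named calls ended, and the counts were 13 in bed nucleus (7.94%), 11 in 129S6/SvEvTac (9.24%), 6 in A/J (9.35%), 8 in C57BL/6J (10.6%), 5 in DBA/2J (7.28%), 17 by the brain strain F (24%), 6 by the pituitary F (9.23%) and 3 by the interaction F (5.97%). A further threshold of 2-fold left 27 members in pituitary gland, 3 in hippocampus, 2 in bed nucleus, 1 in amygdala, 0 in hypothalamus and 0 in periaqueductal gray. No share of all probe sets is set beside these counts, so they do not tell the members from other genes. Over the 4 tissues labelled in 1 round the counts were 10 in 129S6/SvEvTac (7.92%), 7 in A/J (9.23%), 10 in C57BL/6J (17.4%) and 6 in DBA/2J (6.36%). FVB/NJ had 11 with 64 added before the log (13%) and 11 with quantile normalization (12.1%). The brain strain F called 10 with group means as samples (15.3%), and the pituitary F called 9 without the 4 arrays labelled C3H/HeJ or FVB/NJ (9.89%). Leaving out each array in turn gave 6 to 15 members in A/J, 7 to 14 in DBA/2J, 4 to 13 in FVB/NJ and 8 to 16 by the pituitary F. The 6 came without A/J hippocampus replicate 2 (9.46% of all probe sets) and the 13 without FVB/NJ bed nucleus replicate 2 (12%). The 7 came without DBA/2J cingulate cortex replicate 1 (9.55%), hypothalamus replicate 2 (9.63%) or periaqueductal gray replicate 1 (8.68%). The 8 came without C57BL/6J pituitary gland replicate 2 (12.4%). The other ends of these ranges are given without a share. The Slc1a1 pituitary F (2.43, adjusted p = 0.184) ended without 129S6/SvEvTac pituitary gland replicate 2 and that of Slc25a51 (3.15 and 3.27) without replicate 2 of the pituitary arrays labelled C3H/HeJ or FVB/NJ. Slc5a6 in DBA/2J ended without any 1 of 4 arrays. In settings chosen after seeing the data, leaving out arrays of high choroid plexus sum gave 5 members in bed nucleus (5.58%), with Slc4a2 at -0.044, and 30 in amygdala (23.4%). All arrays of the strains left gave 10 in bed nucleus (8.12%) and 45 in amygdala (30.9%), and leaving out hypothalamus arrays of high meninges sum gave 22 (18.5%). Fewer strains and arrays entered these fits. Without bed nucleus and amygdala the counts were 8 in 129S6/SvEvTac (7.53%), 5 in A/J (7.68%), 10 in C57BL/6J (12.6%), 6 in DBA/2J (6.65%) and 23 by the brain F (25.3%). No scaling moved the median of all probe sets by more than 0.1 on the log2 scale. Signal over background limits the dim members, Slc22a6, Slc4a5, Slc12a7 and Slc34a2 among them.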

Other observations

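3 members named for their level within a class were not described by tissue above. Amygdala and cingulate cortex, labelled in 2 rounds, are given last. Slc1a4, an exchanger of alanine, serine and cysteine, had median intensities of 183 in pituitary gland, 227 in hippocampus, 413 in hypothalamus, 329.5 in bed nucleus, 350.3 in periaqueductal gray, 342 in amygdala and 304 in cingulate cortex, with log2 differences of -0.76 in pituitary gland (adjusted p = 4.72e-15), -0.64 in hippocampus and 0.20 in periaqueductal gray. Slc16a8, a lactate transporter best known from retinal pigment epithelium, had medians of 76.6 in pituitary gland, 61.7 in hippocampus, 71.9 in hypothalamus, 67.05 in bed nucleus, 58.9 in periaqueductal gray, 55.6 in amygdala and 47.3 in cingulate cortex and did not pass the test in pituitary gland (0.18, adjusted p = 0.153). The taurine transporter Slc6a6 had medians of 431 in pituitary gland, 383 in hippocampus, 334 in hypothalamus, 341 in bed nucleus, 326 in periaqueductal gray, 236 in amygdala and 262 in cingulate cortex. 12 genes had more than 1 tested probe set. In 24 comparisons of such a gene at least 2 of its probe sets passed the test, and in 3 of these they had opposite signs: Slc11a2 and Slc29a1 in pituitary gland and Slc25a5 in amygdala.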
